A study of Mus musculus with 14 samples.

Results

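Planar cell polarity is the alignment of cells within the plane of a tissue sheet, at right angles to the axis that runs from the apical to the basal face. In its core system, the atypical cadherins Celsr1, Celsr2 and Celsr3 bridge neighbouring cells, while Frizzled receptors (Fzd3, Fzd6) with Dishevelled gather on one side of a cell and Vangl1 or Vangl2 with Prickle on the opposite side. A parallel system uses the giant cadherins Fat4 and Dchs1, which bind each other across cell contacts, also between an epithelium and its mesenchyme. In epithelia these systems are known for orienting hairs and sensory cells, closing the neural tube and shaping elongating tubes.

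The 10 genes described here, Celsr1, Celsr2, Celsr3, Vangl1, Vangl2, Fzd3, Fzd6, Prickle1, Dchs1 and Fat4, were taken by symbol from the 55228 genes of the count tables. They were selected on their differences in CPM between bladder and urethra and between stages in these same libraries, so their values are a description, and no p-value is given for them. All 10 had enough counts to enter every comparison.

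RNA was sequenced from the epithelium of the bladder and of the pelvic urethra of female CD-1 mouse embryos, an outbred strain, all wildtype and untreated. The groups were bladder at embryonic day 14.5 (E14.5, 4 libraries), urethra at E14.5 (4), bladder at E18.5 (3) and urethra at E18.5 (3). Each library pooled the female embryos of a litter, and the epithelium had been pulled from the mesenchyme by hand after trypsin, so other cells can remain. The 2 stages came in separate tables, and a difference between stages cannot be told apart from a difference between the tables.

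Libraries held 21.1 to 36.8 M counts. Levels are given in CPM (counts-per-million values, scaled by the trimmed mean of M values, TMM), and levels of different genes are compared only in RPKM, which also divides by the exon length in kilobases. A panel of 10 epithelial genes that includes Epcam and Cdh1 summed to 7160 to 8971 CPM in the E14.5 bladder and 2760 to 5599 CPM in the E14.5 urethra, and to 6097 to 9784 and 5850 to 6717 CPM at E18.5. At E14.5, 7 of these 10 genes passed the test as higher in bladder (median log2 fold change 0.95), and 5 of 10 mesenchyme markers as higher in urethra (median -1.23). Their part in the tissue differences at E14.5 was examined only through the scaling and the marker covariate given with the genes. The epithelial sums at E18.5 do not show how the single genes of that panel differed. Of its 10 genes, 4 then passed toward the urethra and 2 toward the bladder, with a median log2 fold change of -0.33. The part of this split in the E18.5 tissue differences was not tested. The 10 mesenchyme markers (Col1a1, Pdgfra, Twist2 and others) summed to 834 to 5378 CPM at E14.5 and 4130 to 4831 CPM in the urethra at E18.5, but to 18140 to 26528 CPM in the bladder at E18.5. Smooth muscle, endothelial and immune markers were also highest in the 3 E18.5 bladder libraries. A fold change in such bulk RNA cannot tell fewer cells of a type from less RNA per cell.

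RefSeq start sites (GRCm38.p6) were matched for 5 of the 10 genes, with 6 promoter windows of 250 bases before the start. The windows of 3 genes are printed, because they belong to genes that the results turn on. Celsr2, whose bladder level was among those farthest below the urethra, has its window at chr3:108415580-108415829 on the minus strand. Prickle1, whose tissue difference turned round between stages, has one at its outer start, chr15:93595903-93596152, and another at an inner start, chr15:93519521-93519770, both on the minus strand. Fat4 has its window at chr3:38886690-38886939 on the plus strand. All are written 5′ to 3′ on the strand of the gene, and capitals mark the GC box GGGCGG on either strand, with overlapping matches joined.
Celsr2: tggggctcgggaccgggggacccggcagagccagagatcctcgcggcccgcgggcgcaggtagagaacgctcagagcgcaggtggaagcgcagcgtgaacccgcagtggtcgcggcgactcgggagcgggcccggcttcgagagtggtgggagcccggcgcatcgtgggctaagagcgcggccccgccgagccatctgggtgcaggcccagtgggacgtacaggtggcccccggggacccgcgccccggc
Prickle1 outer start: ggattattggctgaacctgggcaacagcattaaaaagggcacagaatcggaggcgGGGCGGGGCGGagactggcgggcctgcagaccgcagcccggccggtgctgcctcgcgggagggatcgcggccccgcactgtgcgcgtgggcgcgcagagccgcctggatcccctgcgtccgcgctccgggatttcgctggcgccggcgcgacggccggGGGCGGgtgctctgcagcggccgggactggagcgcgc
Prickle1 inner start: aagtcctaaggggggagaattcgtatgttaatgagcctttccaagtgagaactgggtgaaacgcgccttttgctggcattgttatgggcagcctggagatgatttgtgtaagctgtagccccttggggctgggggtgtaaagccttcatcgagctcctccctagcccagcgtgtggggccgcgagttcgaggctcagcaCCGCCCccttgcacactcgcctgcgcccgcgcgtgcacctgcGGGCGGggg
Fat4: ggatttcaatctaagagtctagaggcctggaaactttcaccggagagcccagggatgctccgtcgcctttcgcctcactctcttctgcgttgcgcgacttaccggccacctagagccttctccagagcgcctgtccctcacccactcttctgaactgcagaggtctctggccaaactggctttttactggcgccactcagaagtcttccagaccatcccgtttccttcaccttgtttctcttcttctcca

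The Celsr2 window was 75.2% G and C and held no GC box but 3 E boxes (CANNTG). The outer Prickle1 window was 74% G and C with 3 GC boxes, 2 of which overlap by a base, and no E box. The inner Prickle1 window was 60.8% G and C and held 2 GC boxes and 2 E boxes, while the Fat4 window was 54.8% G and C and held none of the 5 motifs searched. Those were the GC box, the E box, the grainyhead motif AACCNGTT, the AP-1 motif TGANTCA and the TATA box TATAAA. Of 32851 mouse promoter windows of the same length, 32.7% held the GC box, 66.2% the E box, 1.79% the grainyhead motif, 6.75% the AP-1 motif and 12.4% the TATA box. None of these 6 windows held the last 3. The letters are a description of these windows and say nothing of what binds there.

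Between the tissues, the largest differences were those of Celsr1 and Celsr2, the 7-pass cadherins that form the bridges between cells. Celsr1 (chr15:85898929-86033777) stood at 14.5, 5.67, 17.4 and 12.3 CPM in the E14.5 bladder and at 331.9, 181.7, 138.1 and 178.0 CPM in the E14.5 urethra. The lowest urethral library was far above the highest bladder library. The fitted bladder level was 17.1-fold lower, a log2 fold change of -4.10 ± 0.41 (SE). At E18.5 the bladder libraries held 15.9, 21.3 and 21.5 CPM of Celsr1 and the urethral ones 163.1, 97.1 and 186.6 CPM, again without overlap. Here the log2 fold change was -2.95 ± 0.25, or 7.73-fold.

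Celsr2 (chr3:108390851-108415552) was at 29.2, 24.3, 21.6 and 25.3 CPM in the E14.5 bladder and at 135.1, 93.3, 64.9 and 98.3 CPM in the E14.5 urethra. The groups did not overlap, and the log2 fold change was -2.005 ± 0.20 (4.01-fold lower in bladder). By E18.5 the bladder had 14.1, 16.8 and 13.997 CPM and the urethra 136.0, 126.0 and 129.8 CPM, a log2 fold change of -3.14 ± 0.11 (8.84-fold). The Celsr2 gap was thus wider at E18.5, with a difference of differences of -1.11 ± 0.26 on the log2 scale. Celsr1 went the other way, at 1.18 ± 0.51, which did not pass the threshold used for all genes (adjusted p under 0.05 in the quasi-likelihood test of edgeR). Scaling to 7 pan-epithelial genes, described with the stages, turned the Celsr2 value to 0.18 and moved the Celsr1 value to 2.37, past the threshold.

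Per length, the 3 Celsr genes together amounted to 3.45 ± 0.59 RPKM (SD, n = 4) in the E14.5 bladder and 27.7 ± 10.03 RPKM (SD, n = 4) in the E14.5 urethra. At E18.5 they summed to 3.15 ± 0.38 RPKM in bladder and 25.1 ± 4.60 RPKM in urethra (SD, n = 3 each). The mix also differed. Celsr1 made up 31.8 ± 9.36% of the summed Celsr RPKM in the E14.5 bladder (SD, n = 4), with libraries from 19.4 to 42.1%. In the E14.5 urethra it made up 67.3 ± 3.07% (64.4 to 71.7%), so that Celsr2 led in the bladder and Celsr1 in the urethra. The shares drew together at E18.5, with Celsr1 at 56.3 ± 3.85% in bladder and 53.0 ± 7.71% in urethra (SD, n = 3 each).

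Celsr3 (chr9:108826320-108852969), best known from growing axons, was the least abundant of the 10 genes, at 0.0718 to 0.355 RPKM as group means. It stood at 2.10, 0.43, 3.61 and 0.55 CPM in the E14.5 bladder and 2.33, 3.12, 6.99 and 4.71 CPM in the E14.5 urethra, and these groups overlapped. At E18.5 it was at 0.74, 1.12 and 0.74 CPM in bladder and 1.38, 1.66 and 5.15 CPM in urethra. The log2 fold changes were -1.40 ± 0.70 at E14.5, short of the threshold, and -1.68 ± 0.55 at E18.5, past it. The E18.5 value was -0.83 without urethra replicate 3 and no longer past the threshold, which was also missed without any 1 bladder replicate (-1.54, -1.88 and -1.54). At E18.5, 5 neural and neural crest markers summed to 13.4, 17.4 and 96.3 CPM in urethra replicates 1, 2 and 3. In the bladder replicates they summed to 12.7, 54.2 and 12.5 CPM. Their part in the Celsr3 values was not tested.

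**Figure D1:**
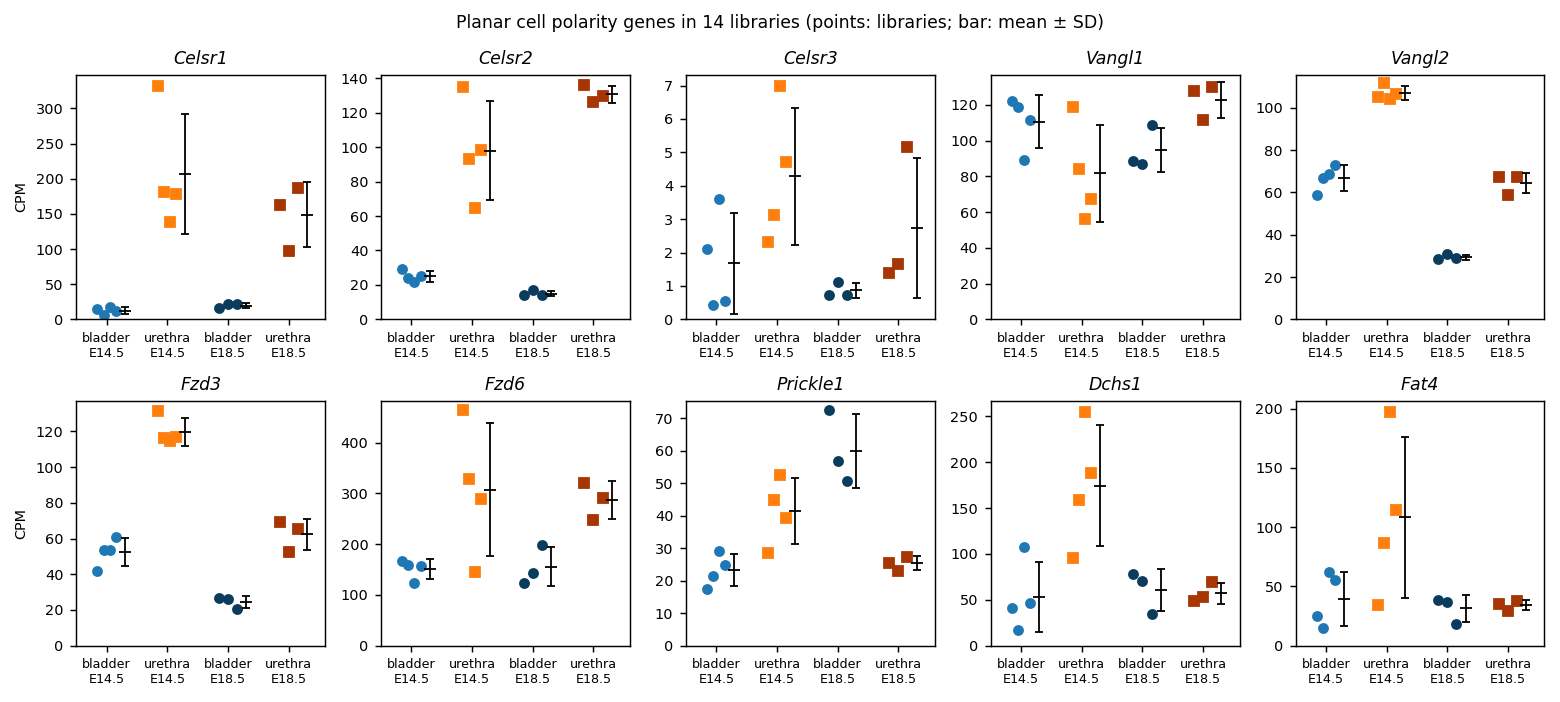
CPM of the 10 planar cell polarity genes in each of 14 libraries (circles bladder, squares urethra), with the mean and SD of each group as a black bar, on linear axes that start at 0. Celsr1 in the urethra lies between 97.1 and 331.9 CPM and in the bladder between 5.67 and 21.5 CPM, and Prickle1 is the gene whose E18.5 bladder libraries, 50.6 to 72.7 CPM, lie above its E18.5 urethral ones.

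The Vangl pair, 4-pass membrane proteins that recruit Prickle, did not behave alike. Vangl2 (chr1:172000960-172028444) was at 58.7, 66.8, 68.7 and 73.1 CPM in the E14.5 bladder and at 105.3, 111.6, 104.3 and 106.6 CPM in the E14.5 urethra. Its spread was small, the groups did not overlap, and the log2 fold change was -0.72 ± 0.08 (1.65-fold). At E18.5 the bladder libraries held 28.6, 30.8 and 28.9 CPM and the urethral ones 67.3, 58.8 and 67.2 CPM, a log2 fold change of -1.15 ± 0.11 (2.22-fold). Vangl2 was therefore lower in the bladder at both stages and lower at the later stage in both tissues.

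Vangl1 (chr3:102153583-102204693) stood at 122.0, 119.0, 89.5 and 111.8 CPM in the E14.5 bladder and at 118.8, 84.4, 56.2 and 67.2 CPM in the E14.5 urethra. These groups overlapped, and the log2 fold change of 0.40 ± 0.21 did not pass the threshold, although without urethra replicate 1 it was 0.64 and did. At E18.5 it was at 88.5, 87.0 and 108.7 CPM in bladder and 127.7, 111.4 and 129.8 CPM in urethra, a log2 fold change of -0.39 ± 0.13 (1.31-fold). That value lost its call without bladder replicate 1 or 2 or urethra replicate 1 or 3 (-0.31 to -0.37), and pan-epithelial scaling brought it to 0.012.

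As a share of the 2 Vangl genes in RPKM, Vangl2 made up 38.4 ± 4.73% in the E14.5 bladder and 58.1 ± 7.76% in the E14.5 urethra (SD, n = 4 each). At E18.5 the share was 24.3 ± 2.66% in bladder and 34.9 ± 0.253% in urethra (SD, n = 3 each). Vangl2 was the larger part of the pair in 3 of the 4 E14.5 urethral libraries (57.5 to 65.5%), while urethra replicate 1 had 47.6%. The summed RPKM of the pair was 25.0 and 26.7 in bladder and urethra at E14.5 and 17.5 and 26.4 at E18.5. A share within a library does not depend on how the library is scaled.

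**Figure D2:**
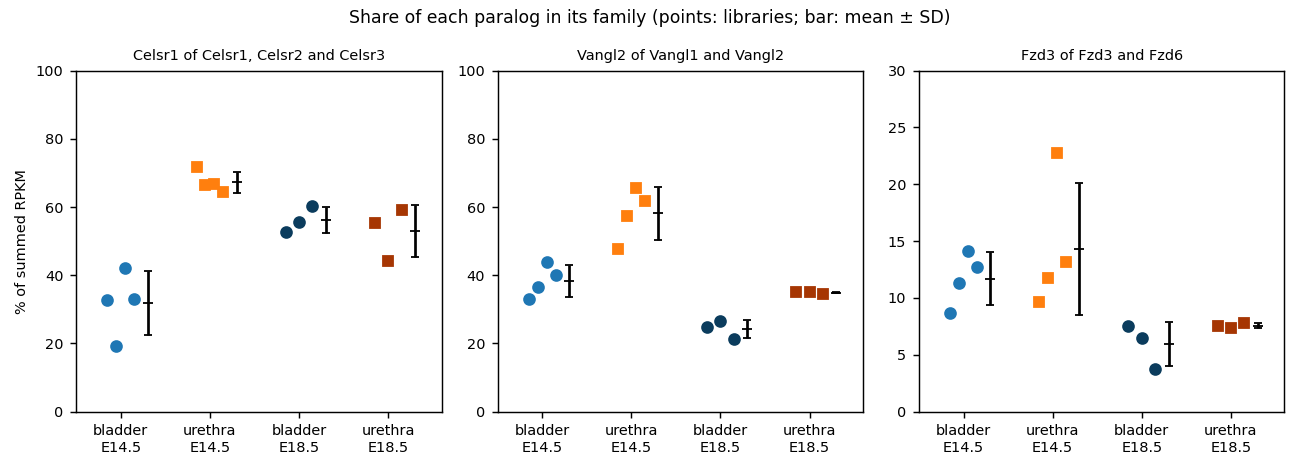
Share of Celsr1 in the summed RPKM of the Celsr genes, of Vangl2 in that of the Vangl genes and of Fzd3 in that of Fzd3 and Fzd6 (percent, linear axes; the last ends at 30), by library, with mean and SD as black bars. Celsr1 takes 19.4 to 42.1% in the E14.5 bladder and 64.4 to 71.7% in the E14.5 urethra, and Vangl2 takes 21.4 to 26.6% in the E18.5 bladder.

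Among the Frizzled receptors, Fzd6 was the most abundant of the 10 genes per length in all 4 groups, at 31.4 ± 4.04 and 63.8 ± 27.2 RPKM in bladder and urethra at E14.5 (SD, n = 4 each). Fzd6 (chr15:39006034-39038188), which orients hair follicles in mouse skin, stood at 166.1, 158.6, 122.5 and 157.3 CPM in the E14.5 bladder and at 464.7, 328.8, 146.0 and 289.7 CPM in the E14.5 urethra. Urethra replicate 3 lay within the bladder range, so the groups overlapped. The log2 fold change was -1.07 ± 0.29 (2.09-fold lower in bladder). At E18.5 the bladder had 123.6, 143.6 and 198.2 CPM and the urethra 321.0, 247.7 and 291.3 CPM, with no overlap and a log2 fold change of -0.90 ± 0.19.

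Fzd3 (chr14:65192449-65262463), a receptor that acts in axon guidance and overlaps in function with Fzd6 in neural tube closure, had narrower groups. Its levels were 41.8, 53.9, 53.4 and 60.8 CPM in the E14.5 bladder and 131.6, 116.2, 114.4 and 116.7 CPM in the E14.5 urethra. At E18.5 it was at 26.9, 26.4 and 20.8 CPM in bladder and 69.3, 52.4 and 65.4 CPM in urethra. Every urethral library exceeded every bladder library of its stage, with log2 fold changes of -1.23 ± 0.11 and -1.36 ± 0.15. Fzd3 took 11.7 ± 2.32 and 14.3 ± 5.82% of the summed Fzd3 and Fzd6 RPKM at E14.5 (SD, n = 4) and 5.94 ± 1.94 and 7.56 ± 0.212% at E18.5 (SD, n = 3), in bladder and urethra respectively. Which of the pair carried the drop in this share depended on the scaling. With TMM, Fzd6 had log2 differences between stages of 0.07 ± 0.28 in bladder and -0.11 ± 0.28 in urethra, neither past the threshold, and Fzd3 was lower in both tissues. With pan-epithelial scaling, Fzd6 had 0.58 and -0.82, both past it, and Fzd3 -0.50 in bladder, short of it, and -1.78 in urethra, past it.

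Prickle1, the cytoplasmic partner of the Vangl proteins, was the gene whose tissue difference turned round. At E14.5, Prickle1 (chr15:93499114-93595891) stood at 17.5, 21.6, 29.3 and 25.0 CPM in bladder and at 28.5, 45.0, 52.6 and 39.4 CPM in urethra. Bladder replicate 3 and urethra replicate 1 met, and the log2 fold change was -0.87 ± 0.22 (1.82-fold lower in bladder). At E18.5 it was at 72.7, 56.8 and 50.6 CPM in bladder and at 25.5, 23.1 and 27.4 CPM in urethra. The lowest bladder library was then above the highest urethral one, with a log2 fold change of 1.23 ± 0.16 (2.34-fold higher). The difference of differences was 2.12 ± 0.30.

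The summed mesenchyme markers, none of them at 0 throughout a group, moved with Prickle1 in some libraries and not in others. They were highest in the 3 E18.5 bladder libraries (26528, 22658 and 18140 CPM), in the same order as Prickle1 there, and at E14.5 the highest library of each tissue for both was replicate 3 (3821 CPM in bladder, 5378 CPM in urethra). In the E14.5 bladder, however, replicate 1 had the second-highest markers (2542 CPM) and the lowest Prickle1 (17.5 CPM). Between the stages in the urethra, the median marker sum went from 2878 to 4283 CPM while Prickle1 was lower in every E18.5 library. That sum does not stand for the single markers, whose median log2 value there was -0.25. Of the 10, 1 passed as higher at E18.5 (17.3% of all genes) and 2 as lower (15.7%). With the mean log2 CPM of these markers as a covariate, the E14.5 log2 fold change of Prickle1 was -0.47 and no longer past the threshold. The same fit at E18.5 gave 0.44, but there the covariate follows the tissue so closely that 2 of all genes tested remained past the threshold.

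Dchs1 and Fat4, the cadherin ligand and receptor of the parallel system, varied widely between litters. Dchs1 (chr7:105752990-105787654) was at 40.7, 17.6, 107.4 and 46.0 CPM in the E14.5 bladder and at 95.4, 159.3, 255.0 and 188.8 CPM in the E14.5 urethra. Bladder replicate 3 lay above urethra replicate 1. The log2 fold change was -1.75 ± 0.53 (3.37-fold lower in bladder), and it lost its call without bladder replicate 1 or 4 or without urethra replicate 2, 3 or 4, at -1.51 to -1.79. At E18.5 the bladder had 77.7, 70.1 and 34.9 CPM and the urethra 48.9, 52.6 and 70.0 CPM, overlapping widely, with a log2 fold change of 0.07 ± 0.28.

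Fat4 (chr3:38886940-39011985) followed the same libraries. It stood at 24.6, 14.9, 62.1 and 55.4 CPM in the E14.5 bladder and at 34.0, 86.6, 197.5 and 114.7 CPM in the E14.5 urethra. Its log2 fold change of -1.50 ± 0.59 did not pass the threshold, though without urethra replicate 1 it was -1.796 and did. At E18.5 the levels were 38.7, 37.1 and 18.6 CPM in bladder and 34.8, 29.5 and 37.9 CPM in urethra, again overlapping, with a log2 fold change of -0.13 ± 0.26. The proportion of the pair was steadier than its level: Dchs1 made up 66.4 ± 7.69, 73.5 ± 6.06, 74.9 ± 0.682 and 72.1 ± 3.04% of their summed RPKM in the E14.5 bladder, E14.5 urethra, E18.5 bladder and E18.5 urethra (SD, n = 4, 4, 3 and 3).

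At E14.5 the order of the mesenchyme markers within each tissue resembled that of Dchs1. In the urethra both ran, from low to high, through replicates 1, 2, 4 and 3, with markers at 1854, 2678, 3078 and 5378 CPM. In the bladder, replicate 2 was lowest (834 CPM) and replicate 3 highest (3821 CPM) for the markers, Dchs1 and Fat4 alike. With the marker covariate at E14.5, the log2 fold change was -0.43 for Dchs1 and 0.09 for Fat4, neither past the threshold. Celsr3 also rose with the marker sum in both E14.5 tissues. It went through 0.43, 0.55, 2.10 and 3.61 CPM in bladder and 2.33, 3.12, 4.71 and 6.99 CPM in urethra. Its log2 fold change with the covariate was 0.18, in place of -1.40. The E18.5 bladder libraries, with the highest marker sums, held 34.9 to 77.7 CPM of Dchs1, below all E14.5 urethral libraries. That comparison crosses tissue, stage and table at once, and the part of mesenchyme in it was not tested.

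**Figure D3:**
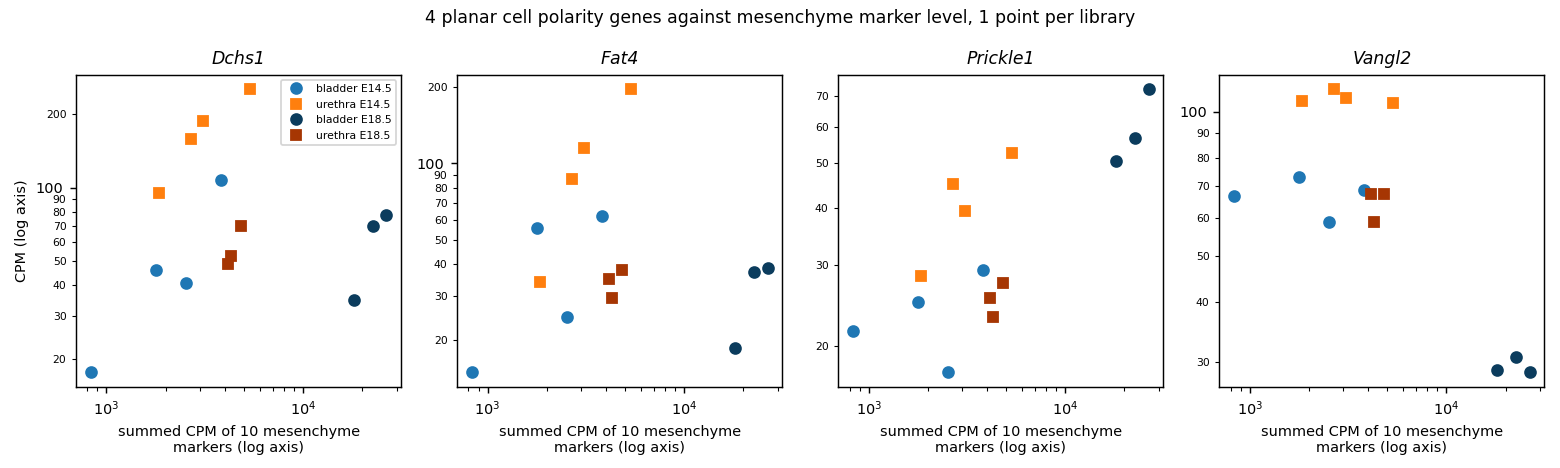
CPM of Dchs1, Fat4, Prickle1 and Vangl2 (log axis) against the summed CPM of 10 mesenchyme markers (log axis), 1 point per library, circles bladder and squares urethra. Dchs1 climbs with the markers within the E14.5 urethra from 95.4 to 255.0 CPM, while Vangl2 there stays between 104.3 and 111.6 CPM.

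Celsr1, Fzd6 and Vangl1 ran in the reverse order of the mesenchyme markers within the E14.5 urethra. From the lowest to the highest marker sum, the 4 libraries held 331.9, 181.7, 178.0 and 138.1 CPM of Celsr1. They held 464.7, 328.8, 289.7 and 146.0 CPM of Fzd6 and 118.8, 84.4, 67.2 and 56.2 CPM of Vangl1. The 10 epithelial genes fell in the same order, with sums of 5599, 3451, 2843 and 2760 CPM. Which panel the order goes with was not tested. In the E14.5 bladder, Celsr1 instead rose in the order of the mesenchyme markers, through 5.67, 12.3, 14.5 and 17.4 CPM. Fzd6 neither rose nor fell steadily there, at 158.6, 157.3, 166.1 and 122.5 CPM from the lowest to the highest mesenchyme sum. Nor did Vangl1, at 119.0, 111.8, 122.0 and 89.5 CPM. With the marker covariate at E14.5 the log2 fold changes of Celsr1, Celsr2, Vangl2, Fzd3 and Fzd6 were -3.94, -2.25, -0.70, -1.32 and -1.49. Those of Celsr2, Fzd3 and Fzd6 thus moved away from 0, from -2.005, -1.23 and -1.07. Those of Celsr1 and Vangl2 moved toward 0, from -4.10 and -0.72, as did that of Vangl1, from 0.40 to 0.015.

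Counted against all genes, 0 of the 10 passed the threshold as higher in bladder at E14.5, where 23.1% of 16697 genes tested did, and 7 of 10 as higher in urethra, where 20.9% did. At E18.5, 1 of 10 (Prickle1) was higher in bladder beside 19.3% of 17513 genes, and 7 of 10 were higher in urethra beside 18.6%. The median log2 fold change of the 10 genes was -1.31 at E14.5 and -1.03 at E18.5, against medians of -0.03 and -0.03 over all genes tested. Since this contrast chose the genes, nothing is read from these counts.

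Between the stages, Vangl2 and Fzd3 were lower at E18.5 in both tissues. The log2 difference of E18.5 over E14.5 was -1.15 ± 0.09 in bladder and -0.75 ± 0.08 in urethra for Vangl2, and -1.05 ± 0.14 and -0.96 ± 0.14 for Fzd3. All 3 E18.5 libraries of a tissue lay below its 4 E14.5 libraries for both genes. Celsr2 was lower at E18.5 in bladder (-0.71 ± 0.19) and had 0.40 ± 0.18 in urethra, short of the threshold but past it without E14.5 urethra replicate 1 (0.60). Prickle1 was 2.64-fold higher at E18.5 in bladder (1.40 ± 0.21) and 1.65-fold lower in urethra (-0.72 ± 0.22), and in each tissue the libraries of the 2 stages did not overlap.

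In the urethra alone, Dchs1 (-1.62 ± 0.52) and Fat4 (-1.68 ± 0.56) were past the threshold as lower at E18.5, whereas in bladder they had 0.23 ± 0.49 and -0.28 ± 0.54. The difference of differences was 1.86 ± 0.70 for Dchs1 and 1.40 ± 0.77 for Fat4, neither past the threshold. That of Dchs1 passed with DESeq2 (1.86), with the replicate block (1.99) and without E18.5 bladder replicate 3 (2.15). Under pan-epithelial scaling both passed, at 3.34 and 2.98. Because the genes were chosen on these contrasts, neither a difference between the tissues nor its absence is read from these calls. Vangl1 was higher at E18.5 in urethra (0.58 ± 0.20), with -0.19 ± 0.20 in bladder. Celsr1 had 0.69 ± 0.36 in bladder and -0.49 ± 0.36 in urethra, Celsr3 -0.90 ± 0.73 and -0.66 ± 0.69, and none of these passed.

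In bladder, 1 of 10 genes was higher at E18.5 (19.9% of 18286 genes tested) and 3 of 10 lower (20.4%). In urethra, 1 of 10 was higher (17.3%) and 5 of 10 lower (15.7%). Both counts depended on the processing. Leaving out E14.5 urethra replicate 3 or 4 left 2 or 3 genes, and leaving out E18.5 urethra replicate 1, 2 or 3 left 2, 2 or 3, while the bladder count was 4 whichever library was left out. No all-gene share of those fits is given beside these counts. Vangl1, Dchs1, Fat4 and Prickle1 were the genes that lost their call (Vangl1 and Fat4 also without E14.5 urethra replicate 2), with log2 values of 0.46 to 0.68, -1.35 to -1.76, -1.18 to -1.76 and -0.56 to -0.69 where they did. Under pan-epithelial scaling, 3 of the 4 bladder genes were no longer past the threshold, Celsr2 at -0.17, Vangl2 at -0.61 and Fzd3 at -0.50, whereas 5 of the 6 urethral ones were (Vangl2, Fzd3, Prickle1, Dchs1 and Fat4).

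For the difference of differences, 1 gene (Prickle1) had a larger bladder minus urethra value at E18.5, beside 12.2% of 18286 genes, and 2 (Celsr2, Vangl2) a smaller one, beside 10.7%. Vangl2 had -0.40 ± 0.12, and lost its call without E14.5 bladder replicate 4, E14.5 urethra replicate 3 or 4, E18.5 bladder replicate 1 or 3, or E18.5 urethra replicate 1 or 3, at -0.34 to -0.42. Without E14.5 bladder replicate 3 or E14.5 urethra replicate 1, 5 genes passed, Vangl1 and Dchs1 joining at -0.84 and 2.49 and at -1.002 and 2.06. Here, too, the all-gene share of the fits is not given.

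A change of scale bears on all of these values. Scaling each library to the summed counts of 7 pan-epithelial genes (St14, Spint1, Spint2, Esrp1, Esrp2, Cdh1 and Epcam) moved the median log2 value of all genes to -1.02 (tissue at E14.5), 0.39 (tissue at E18.5), 0.53 (stage in bladder), -0.84 (stage in urethra) and 1.36 (difference of differences). Under it 10, 5, 0, 7 and 0 of the 10 genes were called in the lower direction and 0, 1, 3, 0 and 7 in the higher one. Over all genes, 517 were then higher and 11415 lower in bladder at E14.5, and 5780 higher and 1317 lower at E18.5. Between the stages, 5742 of 18286 genes were higher and 302 lower at E18.5 in bladder, and 983 higher and 9840 lower in urethra. For the difference of differences, 12881 of 18286 genes were called in the higher direction and 273 in the lower one. Celsr1, Celsr2, Vangl2 and Fzd3 kept a lower bladder level at both stages, with log2 fold changes of -4.92, -2.90, -1.71 and -2.20 at E14.5 and -2.55, -2.72, -0.73 and -0.92 at E18.5. Prickle1 kept its turn, at -1.91 and 1.67. Vangl1 flipped at E14.5 (-0.48) and in the urethral stage comparison (-0.15), and the Vangl2 difference of differences became 0.98.

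**Figure D4:**
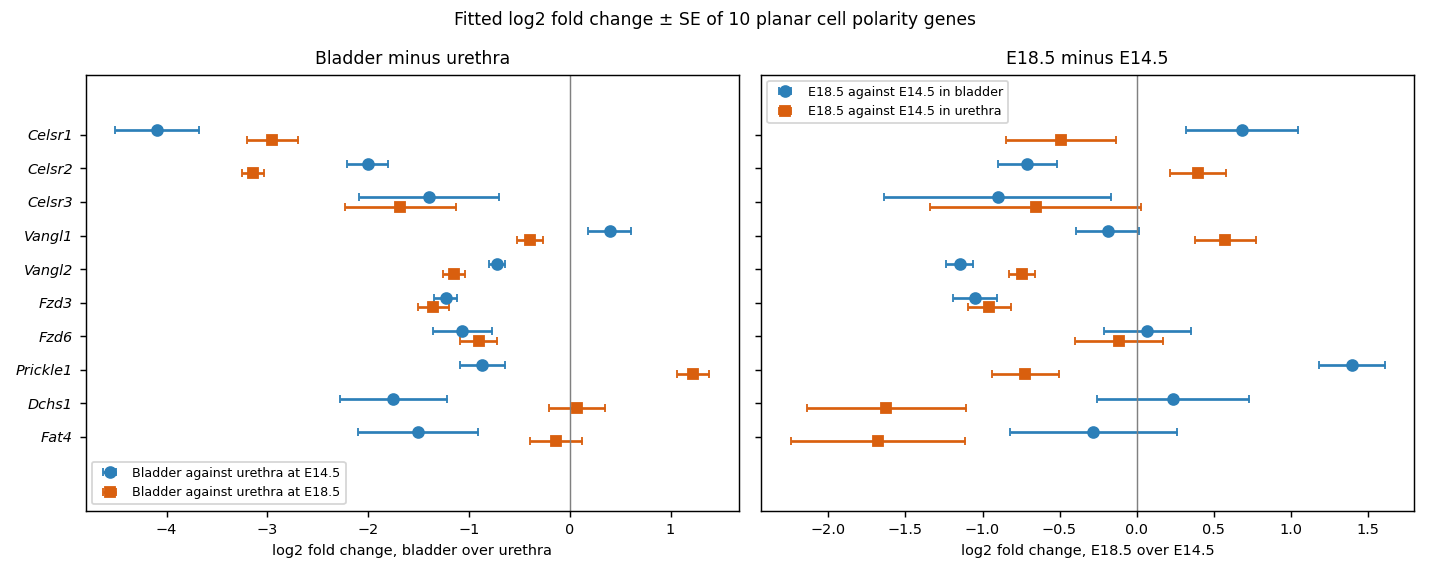
Fitted log2 fold changes with SE of the 10 genes, bladder over urethra at E14.5 and E18.5 (left) and E18.5 over E14.5 in bladder and urethra (right), on linear axes. Celsr1 and Celsr2 lie farthest to the left in the tissue comparisons, at -4.10 and -2.005 for E14.5 and -2.95 and -3.14 for E18.5, and Prickle1 lies on opposite sides of 0.

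The genes with the most similar pattern were found among 13500 genes with at least 1 CPM on average, by the root mean square (RMS) difference of centred log2 CPM over the 14 libraries. For Celsr1 they were Bcl2 (0.46), Efna3 (0.50) and Gpx2 (0.52), and Celsr2 was close to Smox (0.27) and Slc39a4 (0.33). Vangl2 was nearest to Zfp629 (0.13), Zfhx2 (0.13) and Bcl9 (0.15), and Fzd3 to Tgif2 (0.18), Nav2 (0.18) and Gprasp1 (0.19). Within the 10 genes, Vangl2 and Fzd3 were each the nearest to the other (0.24), the rank being 43 from Vangl2 and 11 from Fzd3.

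Prickle1 was nearest to Stx2 (0.17), Efemp2 (0.18) and Ap1s2 (0.20). Dchs1 was nearest to Fbn2 (0.20), Clip3 (0.23) and Ror1 (0.25), and Fat4 to Nhs (0.26), Nlgn3 (0.30) and Lrrc4b (0.34). Dchs1 and Fat4 were mutually nearest among the 10, at 0.40, with ranks of 36 and 11. Vangl1, the flattest gene, was nearest to Atp11b (0.081), Aftph (0.10) and Plekhh3 (0.12), Fzd6 to Kdm3a (0.24), Mgat5 (0.25) and Bbc3 (0.26), and Celsr3 to Ntrk3 (0.34), Zfp804a (0.37) and Snap91 (0.38). The libraries of a group share tissue and stage, so likeness over 14 libraries rests largely on 4 group means.

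A list of 47 further genes of planar polarity signalling (other Frizzled and Prickle genes, Dishevelled, the Wnt ligands and co-receptors, trafficking partners and effectors) was tested over all genes, with edgeR and Benjamini-Hochberg adjustment. This list, too, was drawn up with earlier results of these data known. Its counts and adjusted p-values are therefore not those of an independently chosen list, and nothing is read from them about the pathway as a set. Of these, 46 were in the tables and 45 were tested, since Prickle4 was at no more than 0.117 CPM in any group. At E14.5, 19 of the 45 genes were higher in the urethra and 7 in the bladder (22 and 8 adjusted over the list alone), beside 20.9% and 23.1% of all genes, with a median log2 fold change of -0.29 against -0.03 for all genes. The total of 26 was 13 with the mesenchyme covariate and 40, all higher in urethra, with pan-epithelial scaling. Of all 16697 genes, 2744 were called with that covariate, and 11415 were called as higher in urethra with that scaling. At E18.5 the numbers were 16 and 7 (17 and 8 adjusted over the list alone), beside 18.6% and 19.3% of all genes, with a median of -0.23 against -0.03. Without E18.5 urethra replicate 1, 14 genes passed in place of 23, and without E18.5 bladder replicate 2, 15 did. The share of all genes that passed in those fits is not given.

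Of the 11 core cytoplasmic and Frizzled relatives tested, 6 passed in the urethral direction at E14.5, beside the same 20.9% of all genes. At E18.5, 5 were higher in urethra and 2 in bladder, beside 18.6% and 19.3% of all genes, and the bladder count was near its share. Dvl2 and Dvl3, scaffolds that carry the Frizzled signal, had log2 fold changes of -0.59 ± 0.07 (adjusted p = 0.000757, edgeR) and -0.52 ± 0.07 (adjusted p = 0.00114, edgeR) at E14.5. Dvl1 had -0.16 ± 0.13 and did not pass. Ankrd6, the vertebrate relative of Diego, which binds Dishevelled, was at 13.3 ± 1.63 CPM in bladder and 26.9 ± 2.04 CPM in urethra at E14.5 (SD, n = 4 each). At E18.5 it was at 5.97 ± 0.222 and 47.2 ± 10.2 CPM (SD, n = 3 each), a log2 fold change of -3.004 ± 0.19 (adjusted p = 2.62e-05, edgeR).

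Prickle2, the close relative of Prickle1, turned round as well. It stood at 9.21 ± 4.66 CPM in bladder and 34.5 ± 8.14 CPM in urethra at E14.5 (SD, n = 4 each) and at 40.7 ± 8.02 and 12.7 ± 1.16 CPM at E18.5 (SD, n = 3 each). The log2 fold changes were -1.94 ± 0.36 (adjusted p = 0.00353, edgeR) and 1.66 ± 0.17 (adjusted p = 0.000224, edgeR). Prickle3 differed from both, with -0.16 ± 0.20 at E14.5 and -0.59 ± 0.16 at E18.5 (adjusted p = 0.0221, edgeR), a call lost without bladder replicate 1 or 2 or urethra replicate 1 or 2, at -0.47 to -0.59. As for Prickle1, the mesenchyme markers were highest in the E18.5 bladder. With the marker covariate the Prickle2 value was -1.07 at E14.5, still past the threshold, and 0.57 at E18.5, no longer past it, in the fit that left 2 of all genes called.

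Of the other Frizzled genes, Fzd2 was lower in bladder at E14.5 (-0.91 ± 0.15, adjusted p = 0.00194, edgeR) and had 0.13 ± 0.13 at E18.5. Fzd1 was lower at E14.5 (-0.95 ± 0.32, adjusted p = 0.0408, edgeR) and higher at E18.5 (0.82 ± 0.20, adjusted p = 0.0127, edgeR). The E14.5 call of Fzd1 held in 2 of the 8 fits without 1 library, and where it was lost, without bladder replicate 1, 2 or 4 or urethra replicate 2, 3 or 4, the value ran from -1.03 to -0.63. Fzd7 had -0.29 ± 0.11 and -0.36 ± 0.12 (adjusted p = 0.0566 and 0.0484, edgeR), and its E18.5 call was lost without any 1 library other than urethra replicate 2, at -0.28 to -0.40. Fzd8 passed at neither stage, with -0.08 ± 0.12 and -0.48 ± 0.18.

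Among the Fat and Dachsous relatives, 3 of 5 were lower in bladder at E14.5 (20.9% of all genes) and 1 of 5 at E18.5 (18.6%). Fat3 had log2 fold changes of -2.29 ± 0.67 (adjusted p = 0.024, edgeR) and -1.89 ± 0.43 (adjusted p = 0.00913, edgeR). Fjx1, related to a kinase that tunes Fat and Dachsous binding in the fly, had -0.98 ± 0.20 at E14.5 (adjusted p = 0.00551, edgeR) and -0.02 ± 0.22 at E18.5. Dchs2, at 0.450 to 2.23 CPM as group means, had -1.58 ± 0.50 at E14.5 (adjusted p = 0.0317, edgeR). The E14.5 calls of Fat3 and Dchs2 rested on few libraries: Fat3 lost its call without bladder replicate 1, 2 or 4 or urethra replicate 3 (-1.73 to -2.22), and Dchs2 without any 1 library other than bladder replicate 3 (-1.32 to -1.68). Fat1 and Fat2 passed at neither stage, though Fat2 did at E14.5 without urethra replicate 1 (1.11) and at E18.5 without urethra replicate 2 (-0.65), and Fat1 at E14.5 without urethra replicate 2 (-0.50).

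Of the 8 ligands and co-receptors, 5 were lower and 1 higher in bladder at E14.5 (20.9% and 23.1% of all genes), and 3 and 2 at E18.5 (18.6% and 19.3%). Wnt5a, a ligand of the planar polarity branch of Wnt signalling, was at 15.3 ± 9.92 CPM in bladder and 131.7 ± 48.3 CPM in urethra at E14.5 (SD, n = 4 each), a log2 fold change of -3.14 ± 0.55 (adjusted p = 0.00277, edgeR). At E18.5 it had -1.67 ± 0.19 (adjusted p = 0.000302, edgeR). Wnt11, another ligand of that branch, ran in the opposite direction, with 1.75 ± 0.34 (adjusted p = 0.0041, edgeR) and 2.47 ± 0.22 (adjusted p = 9.76e-05, edgeR). Ror2, a Wnt5a receptor, was lower in bladder at both stages, at -0.83 ± 0.15 (adjusted p = 0.00328, edgeR) and -1.83 ± 0.18 (adjusted p = 0.000177, edgeR). Wnt5a, Wnt11 and Ror2 at E14.5 were singled out after their values had been seen.

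Ptk7, a transmembrane planar polarity regulator, stood at 167.6 ± 29.0 CPM in bladder and 398.4 ± 5.51 CPM in urethra at E14.5 (SD, n = 4 each), a log2 fold change of -1.29 ± 0.13 (adjusted p = 0.000438, edgeR). Csnk1e, a kinase that acts on Dishevelled, had -1.28 ± 0.10 (adjusted p = 0.000281, edgeR) at E14.5 and -1.36 ± 0.11 (adjusted p = 6.63e-05, edgeR) at E18.5. Gipc1, a trafficking adaptor that binds Vangl2, was higher in bladder at E14.5, at 0.94 ± 0.11 (adjusted p = 0.000669, edgeR), but stood at -0.0051 under pan-epithelial scaling. Of 12 effectors tested, 4 were higher and 2 lower in bladder at E14.5, beside 23.1% and 20.9% of all genes, so that these counts were near the background. Rhoa had 0.50 ± 0.09 (adjusted p = 0.00271, edgeR), Cdc42 0.44 ± 0.09 (adjusted p = 0.00655, edgeR) and Rac1 0.36 ± 0.10 (adjusted p = 0.0192, edgeR). These 3 small GTPases were likewise named after their values had been seen.

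Between the stages, 8 of the 45 were higher and 10 lower at E18.5 in bladder (8 and 10 adjusted over the list alone), and 6 higher and 10 lower in urethra (7 and 10 adjusted over the list alone). Over all genes the shares were 19.9% and 20.4% in bladder and 17.3% and 15.7% in urethra, and both bladder counts were near them. Medians were -0.05 and -0.10, against -0.005 and 0.001 over all genes. In bladder, Prickle2 rose by 2.18 ± 0.32 (adjusted p = 0.000205, edgeR) and Gpc4, a heparan sulfate co-receptor, by 1.18 ± 0.18 (adjusted p = 0.000265, edgeR). Scrib, a scaffold that binds Vangl2, had -0.68 ± 0.08 (adjusted p = 4.79e-05, edgeR), Ankrd6 -1.12 ± 0.15 (adjusted p = 0.000129, edgeR), Ror2 -1.08 ± 0.18 (adjusted p = 0.000475, edgeR) and Csnk1d -0.57 ± 0.10 (adjusted p = 0.00077, edgeR). The relatives Fzd1 (1.67 ± 0.31, adjusted p = 0.000919, edgeR) and Dchs2 (2.38 ± 0.58, adjusted p = 0.00545, edgeR) were also higher.

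In urethra, Fzd2 had -1.05 ± 0.15 (adjusted p = 0.000452, edgeR), Dvl2 -0.49 ± 0.09 (adjusted p = 0.0013, edgeR), Wnt11 -1.53 ± 0.33 (adjusted p = 0.00397, edgeR) and Prickle2 -1.46 ± 0.33 (adjusted p = 0.00529, edgeR). On the higher side were Ankrd6 (0.80 ± 0.14, adjusted p = 0.00149, edgeR), Smurf1 (0.53 ± 0.12, adjusted p = 0.00468, edgeR) and Gipc1 (0.55 ± 0.12, adjusted p = 0.0048, edgeR), which pan-epithelial scaling turned to -0.03, -0.27 and -0.25. Smurf1 is a ubiquitin ligase that targets Prickle1. The urethral total of 16 fell to 10, 10, 8 and 10 without E14.5 urethra replicate 3 or E18.5 urethra replicate 1, 2 or 3, fits whose all-gene share is not given. Prickle3 (0.59 ± 0.19) and Fat1 (-0.48 ± 0.16) also passed. Prickle3 lost its call without E14.5 urethra replicate 2, 3 or 4 or E18.5 urethra replicate 1 or 2 (0.47 to 0.61), and Fat1 without E14.5 urethra replicate 3 or E18.5 urethra replicate 1 or 2 (-0.29 to -0.45).

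For the difference of differences, 8 of 45 were larger in bladder minus urethra at E18.5 and 7 smaller (9 and 8 adjusted over the list alone), beside 12.2% and 10.7% of all genes, with a median of -0.02 against -0.01. Prickle2 had the largest value, 3.64 ± 0.46 (adjusted p = 0.000554, edgeR), and Ankrd6 had -1.92 ± 0.21 (adjusted p = 0.000228, edgeR). These moved apart in opposite senses: Prickle2 crossed from urethra to bladder, and Ankrd6 became more urethral. Gipc1 (-1.14 ± 0.17, adjusted p = 0.00131, edgeR) and Magi3 (-1.26 ± 0.23, adjusted p = 0.00298, edgeR) moved toward the urethra, but stood at 0.19 and 0.06 under pan-epithelial scaling. Gpc4 (1.35 ± 0.26, adjusted p = 0.00375, edgeR) and Fzd2 (1.07 ± 0.21, adjusted p = 0.00421, edgeR) moved toward the bladder.

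**Figure D5:**
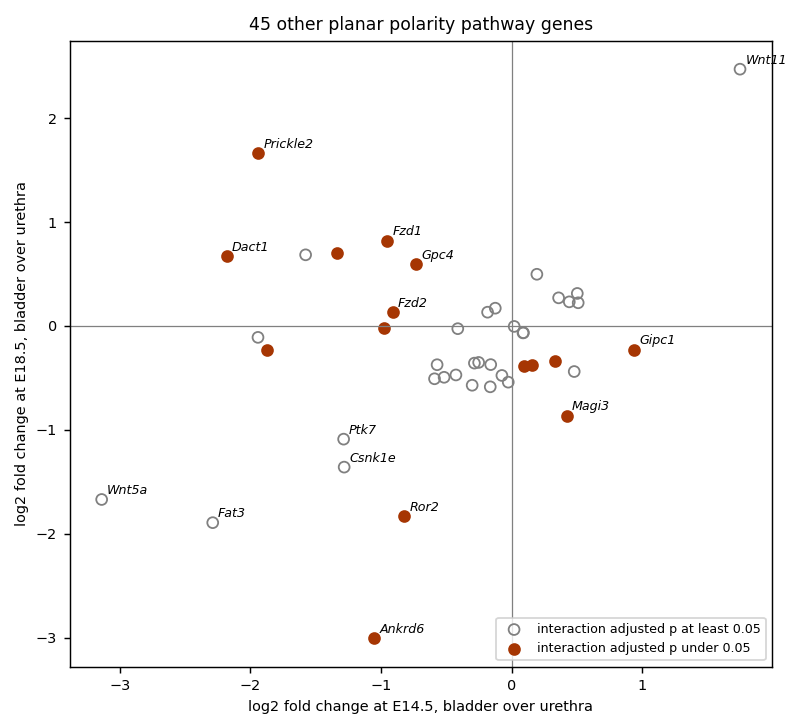
Log2 fold change of bladder over urethra at E14.5 (horizontal) and E18.5 (vertical) for the 45 tested genes of the further list, with filled points where the difference of differences passed. Prickle2 lies at -1.94 and 1.66, and Ankrd6 and Wnt5a lie low on both axes, at -1.05 and -3.004 and at -3.14 and -1.67.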

How the data were processed

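RNA-seq counts of 14 libraries were analysed. Each table gives, per gene symbol, the whole-number counts that the authors deposited without normalizing them, as the values show. Per the submitters' processing notes, the tools included HISAT2 2.2.1 with SAMtools 1.9 and bcl2fastq, and the genome was GRCm38. Which counter, annotation and strand setting were used is not given in the sources available, so reads of genes overlapping on the opposite strand cannot be told apart. Such genes overlap exons of Vangl1, Fzd6, Dchs1 and Fat4, each at no more than 0.654 CPM on average. The design text gives 4 litters at E14.5 and the extraction notes 3, and the 4 libraries were taken as separate litters.

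Genes passing filterByExpr were fitted with TMM factors and tested with edgeR 4.0.16 (quasi-likelihood F test, R 4.3.3), and the threshold was a Benjamini-Hochberg adjusted p below 0.05. Tissues were compared within a stage on the libraries of that stage, and stages and the difference of differences on all 14. SE is the absolute log2 fold change over the square root of F. CPM and RPKM use TMM over all 14 libraries, and log2 CPM a prior count of 2. Replicates differed by more than counting noise, with a chi-square per gene of 10.3 to 105.9 over 18 pairs.

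The members and lists were chosen with earlier results of these data known. Named genes are all 10 members, per comparison the 6 further-list genes with the smallest adjusted p, the Fzd, Prickle, Fat, Dchs2 and Fjx1 relatives, and the 3 genes nearest in pattern to each member. A gene named by this rule and a marker list are not reported here. Alternatives were DESeq2 size factors, pan-epithelial scaling, no filter, DESeq2 1.42.0, a replicate block, a mesenchyme covariate (tissue comparisons) and leaving out each library. The fits were tested on simulated data.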

Additional observations from a re-analysis of the deposited data

Results flagged for a closer look

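In the E14.5 urethra, replicate 1 stood apart for Fzd3 at 131.6 CPM, the next library being at 116.7 CPM. In the E14.5 bladder, replicate 3 stood apart for Fat3 at 13.1 CPM, the next being at 4.45 CPM. About 1 in 20 groups shows such a gap by chance.

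The tissue difference was not the same at the 2 stages for 15 genes of the further list, by the interaction test of edgeR (adjusted p under 0.05). On the log2 scale the difference of differences was positive for Prickle2 (3.64), Dact1 (2.89), Wnt5b (2.08), Fzd1 (1.80), Daam2 (1.67), Gpc4 (1.35), Fzd2 (1.07) and Fjx1 (0.98). It was negative for Ankrd6 (-1.92), Magi3 (-1.26), Gipc1 (-1.14), Ror2 (-0.98), Daam1 (-0.64), Scrib (-0.50) and Csnk1d (-0.45). Fjx1 lost its call without any 1 library other than E14.5 bladder replicate 1, E14.5 urethra replicate 3 or E18.5 urethra replicate 3, at 0.79 to 1.04. Under pan-epithelial scaling the 39 genes of the list that passed all had a positive value, as had 12881 of the 13154 genes called over all genes. Prickle1, at 2.12, was higher at E18.5 in all bladder libraries and lower in all urethral ones. It passed the same test, from which nothing is read, since the gene was chosen with this difference known.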

How the results depend on the processing

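Pan-epithelial scaling moved the number of further-list genes called from 26 to 40 (tissue at E14.5), from 16 to 34 (stage in urethra) and from 15 to 39 (difference of differences), and that of the 10 genes from 3 to 7 (difference of differences). Over all genes it called 11932 of 16697, 10823 of 18286 and 13154 of 18286 in these comparisons, in that order. The mesenchyme covariate gave 13 further-list genes at E14.5, beside 2744 of 16697 genes. At E18.5 it gave 0 further-list genes and 0 of the 10 genes, and 2 of all genes were called by edgeR. Counts without 1 library ran from 14 to 21 further-list genes at E18.5, from 8 to 21 in the urethral stage comparison (2 to 7 of the 10 genes), and from 2 to 5 of the 10 genes for the difference of differences. Directions turned under pan-epithelial scaling for Gipc1 at E14.5 (-0.0051), Vangl1 (0.012) and Fzd7 (0.080) at E18.5, and in the urethral stage comparison for Vangl1 (-0.15), Ankrd6 (-0.034), Smurf1 (-0.27), Gipc1 (-0.25), Fzd8 (-0.81) and Prickle3 (-0.17). They also turned in the difference of differences for Celsr2 (0.18), Vangl2 (0.98), Gipc1 (0.19), Magi3 (0.059), Fzd7 (1.36), Fzd8 (0.95) and Prickle3 (0.90), and under the covariate at E18.5 for Vangl1 (0.31) and Fzd6 (0.45). Among the 10 genes, values short of the threshold in the main fit turned as well. Under the scaling these were Vangl1 at E14.5 (-0.48), Fat4 at E18.5 (0.33) and Celsr2 in the urethral stage comparison (-0.35). Vangl1 (0.34) and Fat4 (0.27) turned in the bladder stage comparison, and Fzd3 (1.29), Celsr3 (1.15) and Vangl1 (0.49) in the difference of differences. Under the covariate they were Celsr3 (0.18) and Fat4 (0.086) at E14.5 and Dchs1 (-2.36) at E18.5. The causes of these turns were not tested. Same-numbered bladder and urethral libraries deviated together with correlations of -0.10 to 0.39 at E14.5 (4 pairs) and -0.19 to 0.14 at E18.5 (3 pairs). So few pairs cannot show whether equal numbers mark the same litter, and the main fits used no pairing. With the replicate block, 29, 17 and 12 further-list genes and 9, 7 and 4 of the 10 genes were called at E14.5, at E18.5 and for the difference of differences. Vangl1 (0.44) and Fat4 (-1.47) gained a call at E14.5 with the block, and Celsr3 (-1.43) lost its call at E18.5. The numbers of all genes called with the block or without 1 library are not given here. A general gain or loss of calls in those fits therefore cannot be told from one in these genes. With 3 or 4 libraries a group, single-gene calls of variable genes such as Dchs1 and Fat4 depended on which library was present.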
